A study of Mus musculus with 16 samples.

Results

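Collagens and laminins are the main structural proteins of the kidney's extracellular matrix, and their chains were followed here across 16 mouse kidney libraries from a study of cisplatin injury and preconditioning. The genes were chosen by symbol, as Col, a number, a and a number, or as Lama, Lamb or Lamc and a number, and by a level of at least 1 TPM in at least 4 libraries. TPM is a read count divided by exon length and scaled so that each library sums to 1000000. Of 55 genes with such a symbol 34 passed, 23 collagen and 11 laminin chains, among 15014 genes that passed the same filter. Their classes are 6 fibrillar chains, 18 basement membrane chains and 10 other collagen chains. Col7a1, with 5 libraries at 1 TPM or more, lies just inside the limit, and Col19a1, with 2, just outside.

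All animals were C57BL/6 mice aged 20 weeks, and kidneys were taken 72 h after an intraperitoneal injection, after perfusion with phosphate buffered saline. BL_vehicle mice had no preconditioning and received sodium chloride 0.9%, and BL_cisplatin mice had no preconditioning and received cisplatin, a platinum drug that injures the proximal tubule. CR_cisplatin mice had 4 weeks of calorie restriction before cisplatin. HP_cisplatin mice were exposed to hypoxia for 2, 4 and 8 h on 3 following days, at least 1 h before cisplatin. Each group has 4 libraries of ribosome-depleted total RNA. Preconditioned kidneys given vehicle were not analysed here, so preconditioning is seen only together with cisplatin. The labels do not say that each library is a separate mouse, so p-values measure the spread between these libraries.

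Collagens are trimers of alpha chains. Fibrillar collagens (types I, III, V and XXVII here) assemble into the fibrils of interstitial matrix, made mainly by fibroblasts and perivascular cells, whereas type IV collagen forms the network of basement membranes, the thin sheets beneath epithelia and around capillaries. Laminins are cross-shaped trimers of an alpha, a beta and a gamma chain that bind cell surface integrins and dystroglycan and lay down the first sheet onto which the collagen IV network is built. In the kidney the mature glomerular basement membrane holds the Col4a3, Col4a4 and Col4a5 chains, loss of which causes Alport syndrome, while the Col4a1 and Col4a2 chains are found in nearly all basement membranes.

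The following features of the libraries bear on the values. Read counts recovered from the TPM totalled 49174117 to 62594474 per library. The sample titles carry 2 prefixes. The first covers BL_cisplatin 1 to 4 and CR_cisplatin 1, and the second covers all other libraries, so for BL_cisplatin against BL_vehicle or HP_cisplatin the prefix and the group cannot be told apart. HP_cisplatin 4 and CR_cisplatin 4 were the closest of 120 pairs of libraries, with a spread of read counts 1.81 times that of counting alone against at least 3.33 for any other pair, so the hypoxia counts, and the values of the chains named with a test there, are given with and without HP_cisplatin 4. The summed TPM of 4 adipocyte markers (Adipoq, Plin1, Cidea, Lep) was 73.9 in BL_cisplatin 4, 43.0 in HP_cisplatin 2, 40.5 in HP_cisplatin 4, 39.9 in CR_cisplatin 4 and 15.99 in BL_vehicle 3, and at most 2.75 in the others.

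Cisplatin without preconditioning changed most of these genes, and it did so in both directions within every class. In limma on log2(TPM + 1) over all 15014 genes, with an adjusted p under 0.05 as the call, 17 of the 34 chains were higher in BL_cisplatin than in BL_vehicle, 10 were lower and 7 did not pass. Of all genes 38.0% were called higher and 28.8% lower, so calls were common everywhere. The median log2 difference of the 34 chains was 0.36, against 0.08 over all genes. Among the fibrillar chains 4 rose and 1 fell of 6 (median 0.48), among the basement membrane chains 9 rose and 7 fell of 18 (median 0.15), and among the other chains 4 rose and 2 fell of 10 (median 0.29). The laminins divided evenly, with 5 higher and 5 lower of 11. These counts include Lamb3, Col7a1 and Col13a1, which passed the level filter only through BL_cisplatin and HP_cisplatin libraries and so had to differ. Without them 14 of 31 chains were higher and 10 lower (median 0.25), with 8 and 7 of 17 basement membrane chains (median −0.08) and 2 and 2 of 8 other chains (median 0.20). Col20a1 reached 1 TPM in 1 vehicle and 1 CR_cisplatin library, too few to pass without BL_cisplatin and HP_cisplatin libraries. Lama4 reached it in 1 BL_cisplatin and 2 HP_cisplatin libraries, too few to pass without vehicle and CR_cisplatin libraries. Both stay in every count of 31 chains. With the prefix as a term, which leaves CR_cisplatin 1 as the link between prefixes, 11 chains were called, beside 3413 of the 15014 genes. In bulk tissue, fewer cells of a type and less RNA per cell cannot be told apart.

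**Figure D1:**
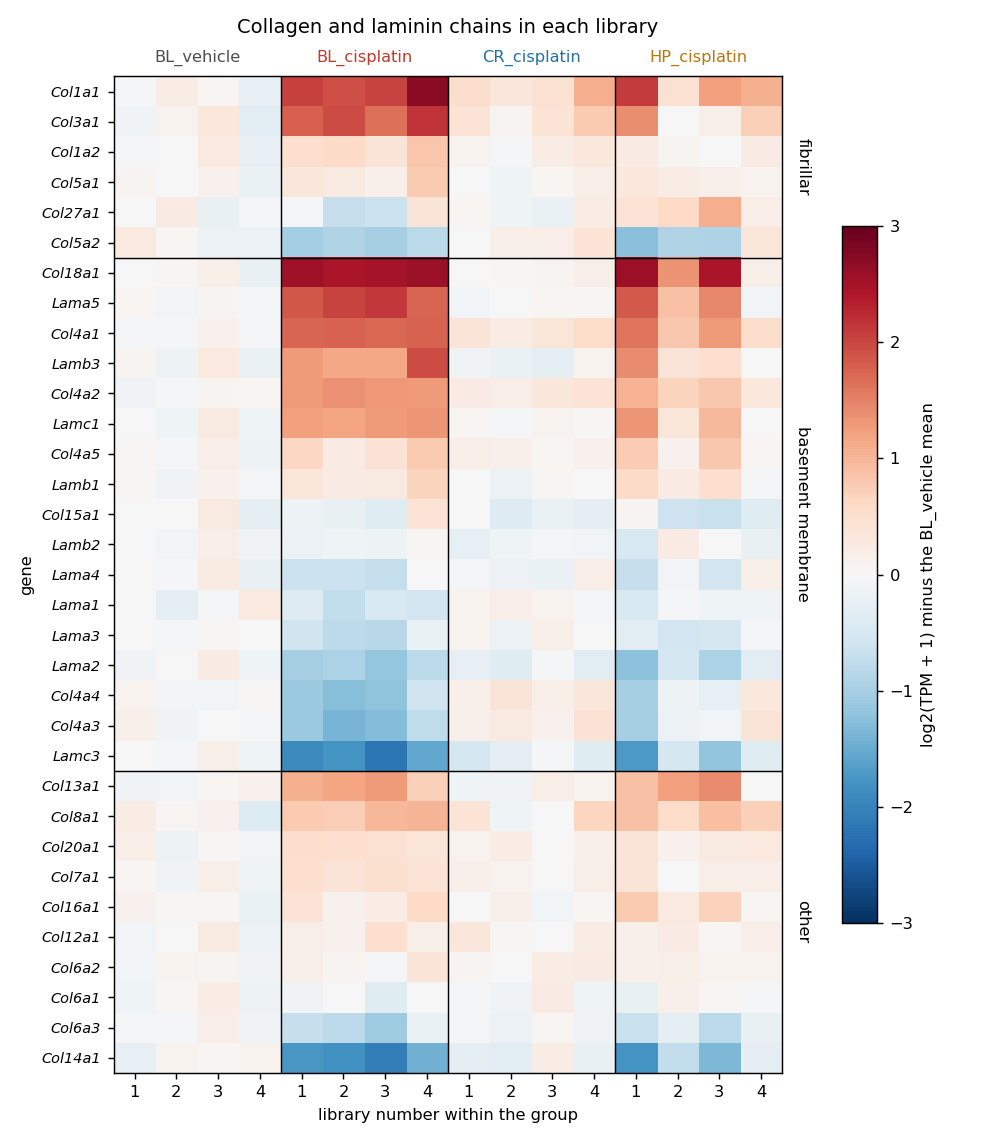
Heat map of 33 of the chains (grouped as fibrillar, basement membrane and other) in the 16 libraries (columns, by group), coloured by log2(TPM + 1) minus the BL_vehicle mean on a scale from −3 to 3. The 4 BL_cisplatin libraries share one pattern of higher and lower chains, the CR_cisplatin libraries lie close to vehicle, and the 4 HP_cisplatin libraries differ among themselves.

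The chains of type I and type III collagen, the main fibrils of scar and interstitial matrix, rose. Col1a1 (ENSMUSG00000001506, chr11:94936224-94953042, GRCm38, plus strand), an alpha chain of type I collagen, was at 1.67, 2.17, 1.87 and 1.30 TPM in BL_vehicle 1 to 4 and at 10.3, 9.44, 10.2 and 16.8 TPM in BL_cisplatin 1 to 4. The groups did not overlap, and BL_cisplatin 4 stood above the other 3 cisplatin libraries. The mean rose 6.66-fold, from 1.75 ± 0.362 to 11.7 ± 3.42 TPM (SD, n = 4 libraries), a log2 difference of 2.18 (SE 0.28, limma adjusted p = 4.8e-05). Col3a1 (ENSMUSG00000026043), which forms type III collagen alone, was at 3.30, 4.02, 4.76 and 2.73 TPM in vehicle and at 15.2, 17.1, 13.6 and 20.0 TPM in BL_cisplatin. Again no library of one group reached the other, and the log2 difference was 1.90 (SE 0.26, limma adjusted p = 5.5e-05), a 4.45-fold rise. Per length, the BL_cisplatin means of both stayed below those of Col4a1 to Col4a4.

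The promoter of Col3a1 is shown because it is 1 of 2 promoters of these chains with the letters TATAAA, as in a TATA box. The letters were sought at any place in the window, so a match does not show a working TATA box. The 250 bases before the Col3a1 start, from RefSeq on GRCm38.p6 at chr1:45311288-45311537, plus strand, are printed 5′ to 3′ with the letters TATAAA in capitals.

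Col3a1: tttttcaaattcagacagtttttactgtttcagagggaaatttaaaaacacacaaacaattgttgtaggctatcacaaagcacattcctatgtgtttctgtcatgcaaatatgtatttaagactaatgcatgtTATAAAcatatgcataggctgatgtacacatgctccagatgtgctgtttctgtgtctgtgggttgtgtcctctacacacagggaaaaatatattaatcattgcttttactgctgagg

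Among all 32851 promoter windows of that length 12.4% held TATAAA on either strand. For 23 of the 34 chains a RefSeq window was at hand, 26 windows in all, and 2 held these letters, those of Col3a1 and Col13a1. Col1a1 had no entry.

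The partner chains of the fibrils moved less or the other way. Col1a2, the second chain of type I collagen, was at 5.13, 5.48, 6.83 and 4.35 TPM in vehicle and at 8.10, 8.50, 7.35 and 10.3 TPM in BL_cisplatin, a 1.57-fold rise (log2 difference 0.57, SE 0.12, limma adjusted p = 0.00080). In vehicle Col1a1 stood at 0.273 to 0.396 of Col1a2 per library, in BL_cisplatin at 1.11 to 1.62. Col5a1, a type V chain that starts and limits fibril growth, rose by 0.39 (SE 0.12, limma adjusted p = 0.012), from 2.54 ± 0.342 to 3.68 ± 0.976 TPM. Its partner Col5a2 fell: 6.28, 5.20, 4.32 and 4.25 TPM in vehicle became 1.94, 2.16, 1.98 and 2.42 TPM, with no overlap (log2 difference −0.93, SE 0.25, limma adjusted p = 0.0048). Col5a2 and Col3a1 are neighbours on chromosome 1, their ends facing each other with 24614 bases between, and the ratio of Col3a1 to Col5a2 went from 0.525 to 1.10 in vehicle up to 6.89 to 8.24 after cisplatin. Col27a1, a fibrillar chain best known from cartilage, did not pass, at 14.3 ± 2.02 TPM in vehicle and 12.4 ± 4.92 TPM in BL_cisplatin.

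Type IV collagen changed its make-up. The broadly used chains Col4a1 and Col4a2 rose while the glomerular chains Col4a3 and Col4a4 fell. Col4a1 (ENSMUSG00000031502, chr8:11198423-11312826, minus strand) was at 43.7, 44.5, 49.3 and 43.6 TPM in vehicle and at 153, 156, 151 and 155 TPM in BL_cisplatin. The 4 cisplatin libraries lay close together and far above vehicle, a 3.40-fold rise (log2 difference 1.74, SE 0.17, limma adjusted p = 3.0e-05). Col4a2 (ENSMUSG00000031503) went from 28.7, 30.4, 32.9 and 32.0 TPM to 76.2, 81.9, 77.6 and 76.3 TPM, a 2.52-fold rise (limma adjusted p = 1.8e-05). Col4a3 (ENSMUSG00000079465), the chain that carries the Goodpasture antigen, fell from 54.2, 45.5, 48.7 and 47.5 TPM to 22.0, 17.9, 19.4 and 28.4 TPM. Its groups did not overlap, and it was 2.24-fold lower (log2 difference −1.14, SE 0.22, limma adjusted p = 0.00041). Col4a4 was 2.09-fold lower (log2 difference −1.05, SE 0.21, limma adjusted p = 0.00060), at 37.1 ± 2.44 TPM in vehicle and 17.7 ± 4.25 TPM in BL_cisplatin. Col4a5, the third glomerular chain, did not fall with them but rose 1.48-fold, from 10.8 ± 1.24 to 16.03 ± 2.72 TPM (limma adjusted p = 0.011).

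The chains that moved together are neighbours. Col4a1 and Col4a2 start head to head on chromosome 8 and overlap by 22 bases, and Col4a4 and Col4a3 start head to head on chromosome 1 with 71 bases between (GENCODE M21 ends). Both stretches are short enough to print whole, the first at chr8:11312805-11312826, plus strand, with a GC box (GGGCGG) in capitals, the second at chr1:82586850-82586920, minus strand, with no capitals because no GC, CCAAT or TATA box was found.

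Col4a1-Col4a2: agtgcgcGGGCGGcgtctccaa
Col4a4-Col4a3: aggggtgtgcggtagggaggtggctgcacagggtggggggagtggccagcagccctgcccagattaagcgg

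Within each head-to-head pair the ratio of the chains moved less than the ratio between pairs. Col4a3 stood at 1.25 to 1.38 times Col4a4 in vehicle and 1.18 to 1.33 times after cisplatin, and Col4a1 at 1.36 to 1.53 and then 1.90 to 2.04 times Col4a2. The sum of Col4a1 and Col4a2 over the sum of Col4a3 and Col4a4 was 0.767 to 0.981 in vehicle and 4.42 to 7.27 in BL_cisplatin. Col4a1 made up 24.6% to 27.6% of the summed collagen IV TPM in vehicle and 51.2% to 55.0% in BL_cisplatin, where the sum itself was 279 to 303 TPM against 166 to 179. Exons of Col4a3 share 563 bases with C430014B12Rik on the other strand, and whether reads were counted by strand is not given in the sources used here. Summed podocyte markers, for the cells that make the glomerular chains, were 53.9 to 57.4 TPM in vehicle and 45.9 to 66.2 TPM in BL_cisplatin, with 2 of 8 called higher and 2 lower, and their part in the fall of Col4a3 and Col4a4 was not tested.

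**Figure D2:**
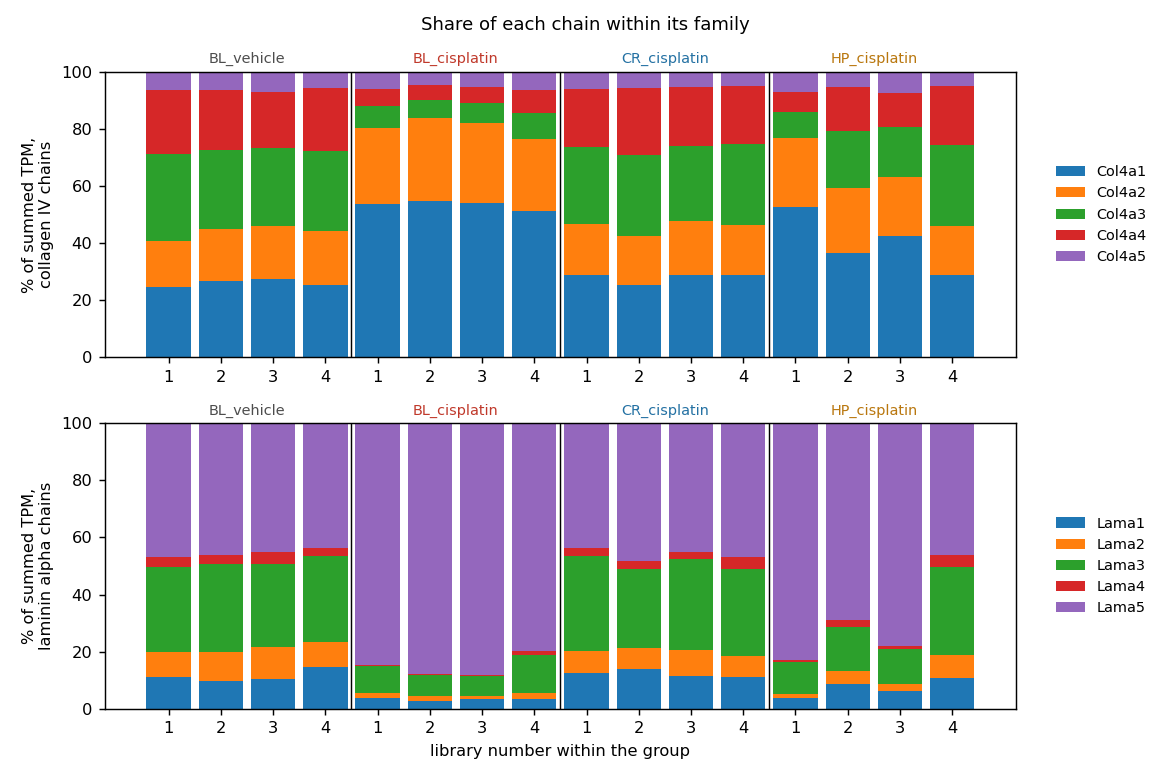
Stacked bars of the share (percent of summed TPM) of each chain among the collagen IV and laminin alpha chains, with a bar for each library, by group. Col4a1 goes from 24.6% to 27.6% of collagen IV in vehicle to 51.2% to 55.0% in BL_cisplatin, and Lama5 goes from 43.9% to 47.0% of the alpha chains to 79.6% to 88.2%.

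Among the laminin alpha chains Lama5 rose and the other 4 fell. Lama5 (ENSMUSG00000015647, chr2:180176373-180225859, minus strand), the alpha chain of mature epithelial and glomerular basement membranes, was at 19.4, 17.5, 19.5 and 17.6 TPM in vehicle and at 70.3, 78.8, 83.5 and 63.8 TPM in BL_cisplatin. No library of one group came near the other, and the rise was 4.01-fold (log2 difference 1.94, SE 0.28, limma adjusted p = 7.0e-05). Lama2, the chain of muscle and nerve laminins, fell from 3.57, 3.91, 4.83 and 3.49 TPM to 1.46, 1.55, 1.20 and 1.79 TPM (log2 difference −0.98, SE 0.16, limma adjusted p = 0.00016). Lama3, the alpha chain of the laminin that anchors hemidesmosomes, fell from 12.2 ± 0.396 to 7.79 ± 1.85 TPM (log2 difference −0.61, limma adjusted p = 0.0012), and Lama1, an early embryonic chain kept in tubular basement membranes, fell from 4.64 ± 0.931 to 2.87 ± 0.407 TPM (log2 difference −0.54, limma adjusted p = 0.0014). Lama4, a chain of capillary basement membranes, was at 1.33, 1.22, 1.80 and 1.00 TPM in vehicle and at 0.475, 0.487, 0.418 and 1.29 TPM in BL_cisplatin. Those groups overlapped through BL_cisplatin 4, and the call (log2 difference −0.51, limma adjusted p = 0.035) was lost without BL_cisplatin 1, 2 or 3 or BL_vehicle 1, 2 or 3, at adjusted p from 0.0517 to 0.101. Lama4 reached 1 TPM in 1 BL_cisplatin and 2 HP_cisplatin libraries, so it needed vehicle and CR_cisplatin libraries, where it was higher, to pass the filter. Lama5 made up 43.9% to 47.0% of the summed alpha chain TPM in vehicle and 79.6% to 88.2% after cisplatin.

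Lama5 had the largest change of the alpha chains, so its promoter is printed. The 250 bases before its RefSeq start lie at chr2:180225860-180226109, minus strand (GRCm38.p6), and hold several GC boxes, GGGCGG or CCGCCC on the other strand, in capitals.

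Lama5: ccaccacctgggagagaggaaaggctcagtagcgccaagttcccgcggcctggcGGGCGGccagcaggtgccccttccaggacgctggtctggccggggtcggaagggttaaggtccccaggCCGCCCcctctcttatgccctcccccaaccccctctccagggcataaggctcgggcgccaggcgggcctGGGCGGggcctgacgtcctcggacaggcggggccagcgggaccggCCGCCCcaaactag

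Of the beta chains Lamb1 rose and Lamb2 did not pass. Lamb1, the most abundant of them and a partner in most fetal and tubular laminins, rose 1.33-fold, from 22.8 ± 1.75 to 30.3 ± 4.56 TPM (log2 difference 0.39, limma adjusted p = 0.014). Lamb2, the beta chain of the glomerular basement membrane, did not pass, with 15.2 ± 1.67 TPM in vehicle and 14.0 ± 1.02 TPM in BL_cisplatin (limma adjusted p = 0.46). Lamb3, a partner of Lama3 at hemidesmosomes, was at 0.716, 0.446, 0.968 and 0.406 TPM in vehicle and at 2.90, 2.59, 2.63 and 5.30 TPM in BL_cisplatin. It lay under 1 TPM in every vehicle and CR_cisplatin library and passed the filter through the other groups, so it too is given with no test.

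Among the gamma chains Lamc1 rose and Lamc3 fell. Lamc1 (ENSMUSG00000026478, chr1:153218922-153332786, minus strand), the gamma chain of most laminins, was at 8.37, 7.52, 10.2 and 7.53 TPM in vehicle and at 20.9, 20.3, 21.7 and 22.6 TPM in BL_cisplatin, a 2.54-fold rise (log2 difference 1.26, SE 0.20, limma adjusted p = 0.00014). Lamc3 (ENSMUSG00000026840, chr2:31887291-31946539, plus strand), a less common gamma chain, went from 7.82, 7.58, 8.96 and 7.14 TPM to 1.34, 1.54, 0.961 and 2.00 TPM. Vehicle and cisplatin libraries were widely separated for both genes, and Lamc3 was 5.39-fold lower (log2 difference −1.86, SE 0.24, limma adjusted p = 4.7e-05). Exons of Lamc3 share 382 bases with Gm13441, and those of Lama2 share 631 with Gm48084, both antisense.

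Col18a1 (ENSMUSG00000001435, chr10:77052178-77166548, minus strand), a basement membrane collagen with heparan sulfate chains whose end fragment is endostatin, had the largest log2 difference of the 34 chains. It was at 25.9, 26.7, 29.6 and 22.2 TPM in vehicle and at 157, 146, 152 and 160 TPM in BL_cisplatin, a 5.90-fold rise (log2 difference 2.52, SE 0.37, limma adjusted p = 7.6e-05). Every cisplatin library held Col18a1 at about the level of Col4a1. Its relative Col15a1, which also carries an endostatin-like end, did not pass, at 5.01 ± 0.942 TPM in vehicle and 4.76 ± 1.46 TPM in BL_cisplatin. The promoter of Col18a1 is shown for that rise: 250 bases before its first RefSeq start, at chr10:77166531-77166780, minus strand (GRCm38.p6), with GC boxes and 1 CCAAT box, both read here from the other strand, in capitals. The window of a second RefSeq start, at chr10:77113706-77113955, held no GC, CCAAT or TATA box letters and is not printed. TPM is per gene, so the start behind the rise is not known.

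Col18a1: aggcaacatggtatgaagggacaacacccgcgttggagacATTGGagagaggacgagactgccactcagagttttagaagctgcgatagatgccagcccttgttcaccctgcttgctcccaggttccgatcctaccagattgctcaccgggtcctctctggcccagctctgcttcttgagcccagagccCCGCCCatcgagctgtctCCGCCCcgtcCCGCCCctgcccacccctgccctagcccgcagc

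Over all 32851 windows 32.7% held a GC box and 33.8% a CCAAT box on either strand, each motif counted on its own. Of the 26 windows of these chains 13 held a GC box and 8 a CCAAT box. Among the 16 windows of chains that rose with cisplatin the counts were 9 and 7, and among the 3 windows of chains that fell both were 0. An AP-1 site (TGANTCA) was in 6.7% of all windows and in 1 of the 26, that of Col6a1. A match is a description of the letters only, and 11 chains, Col1a1 and Lamc3 among them, had no window.

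Of the 10 other collagen chains 6 were called, 2 of them (Col7a1 and Col13a1) chains that the filter kept only through BL_cisplatin and HP_cisplatin libraries. Col14a1 (ENSMUSG00000022371), which coats the surface of fibrils, was at 7.74, 10.2, 9.85 and 10.3 TPM in vehicle and at 2.10, 1.95, 1.47 and 2.85 TPM in BL_cisplatin, 4.54-fold lower without overlap (log2 difference −1.77, SE 0.26, limma adjusted p = 7.2e-05). Col6a3, a chain of beaded microfibrils, fell from 4.49 ± 0.542 to 2.49 ± 0.915 TPM (log2 difference −0.68, limma adjusted p = 0.0022). Its partners Col6a1 and Col6a2 did not pass, with log2 differences of −0.12 and 0.16. Col13a1, a transmembrane collagen, was at 0.596, 0.604, 0.786 and 0.869 TPM in vehicle and at 2.57, 2.90, 3.12 and 1.81 TPM in BL_cisplatin. Col8a1, a short chain of vessel walls, rose from 1.53 ± 0.462 to 3.63 ± 0.441 TPM (limma adjusted p = 0.00039). Col20a1, which also needed BL_cisplatin and HP_cisplatin libraries to pass the filter, was at 0.775 ± 0.197 TPM in vehicle and 1.43 ± 0.130 TPM in BL_cisplatin. Col7a1, the anchoring fibril chain, was at 0.566 ± 0.154 TPM in vehicle and 1.13 ± 0.0886 TPM in BL_cisplatin. Neither Col7a1 nor Col13a1 reached 1 TPM in any vehicle or CR_cisplatin library, so their values are given with no test. The fibril-associated Col12a1 (log2 difference 0.25, limma adjusted p = 0.062) and Col16a1 (0.34, adjusted p = 0.052) did not pass, although the Col16a1 libraries did not overlap.

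**Figure D3:**
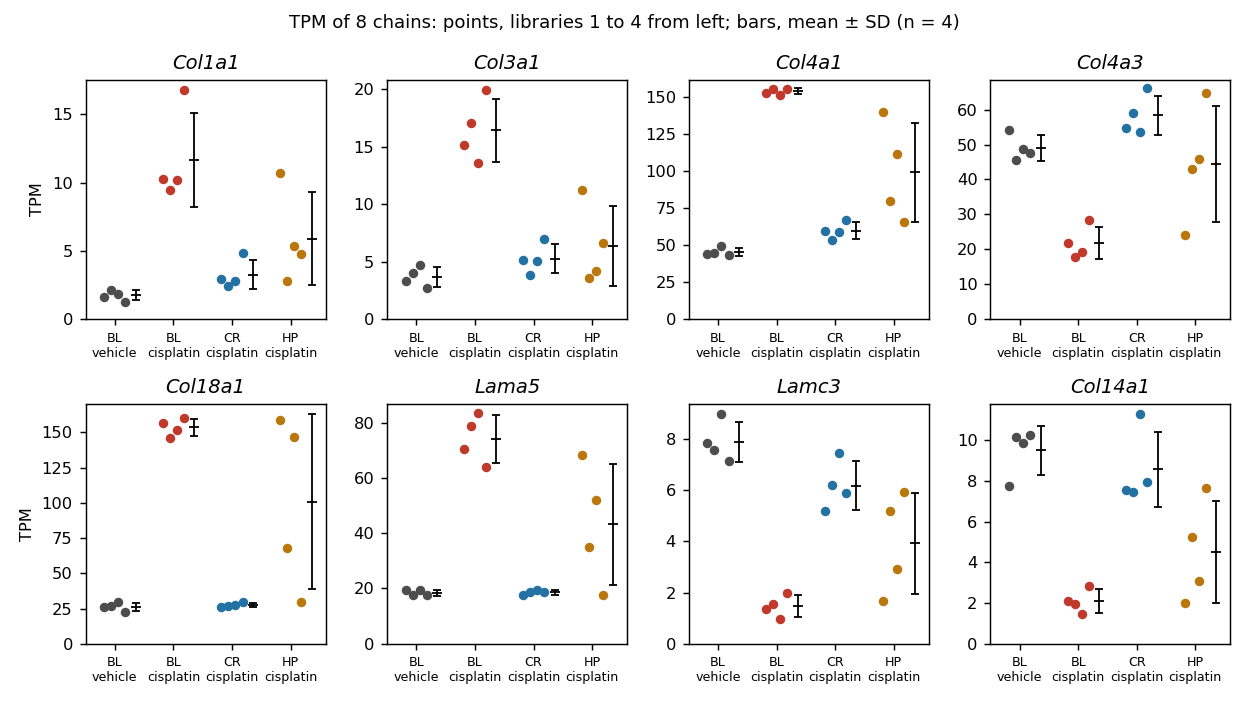
TPM of Col1a1, Col3a1, Col4a1, Col4a3, Col18a1, Lama5, Lamc3 and Col14a1 in each library (points) by group, with the mean and SD of 4 libraries (bars). For Col18a1 the BL_cisplatin libraries lie between 146 and 160 TPM, the CR_cisplatin libraries between 25.9 and 29.3 TPM, and the HP_cisplatin libraries spread from 29.5 to 159 TPM.

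Summed over a class, basement membrane chains gained most. Their 18 chains together held 288 to 323 TPM in vehicle and 604 to 651 TPM in BL_cisplatin. The 6 fibrillar chains together went from 28.6 to 36.3 TPM up to 44.7 to 73.4 TPM, and the 10 other chains held 27.8 to 33.7 TPM and 25.2 to 30.5 TPM. Basement membrane chains made up 81.1% to 83.7% of the TPM of all 34 in vehicle and 86.2% to 89.7% in BL_cisplatin.

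The genes that build and bind these proteins were read beside the chains, from lists chosen with earlier results known. Their counts stand beside the 38.0% of all genes called higher and 28.8% called lower in BL_cisplatin. Of 10 enzymes tested that process and cross-link collagen, 8 were called higher and 1 lower (median log2 difference 0.59). Tgm2, a transglutaminase, rose from 60.6 ± 3.36 to 152 ± 1.59 TPM. Lox, which cross-links fibrils, was at 0.432 ± 0.153 TPM in vehicle and 4.55 ± 0.883 TPM in BL_cisplatin. Of 19 genes for folding and hydroxylation 5 were higher and 8 lower: Plod2, the lysyl hydroxylase of scar cross-links, rose (log2 difference 1.33), whereas P3h2, a prolyl hydroxylase that acts on type IV collagen, fell from 48.5 ± 8.01 to 19.3 ± 3.29 TPM (log2 difference −1.28). Receptors were higher in 10 of 13 cases and lower in 1. Itgb4, the hemidesmosome integrin that binds laminin, rose from 0.965 ± 0.137 to 11.7 ± 1.89 TPM (log2 difference 2.69). The collagen receptor chain Itga2 was at 0.170 ± 0.045 TPM in vehicle and 2.39 ± 0.486 TPM in BL_cisplatin. Lox, Loxl4, Itga2 and 1 further receptor passed the filter only through BL_cisplatin and HP_cisplatin libraries and so had to differ, and they are included in these counts. Of 14 other basement membrane proteins 4 were higher, among them Agrn (log2 difference 1.54), and 3 lower, among them Fras1 (−1.67). TGF-beta signals, which raise collagen transcription, were higher in 8 of 9 cases: Tgfb1 rose from 2.30 ± 0.189 to 8.70 ± 1.16 TPM (log2 difference 1.55). Of 9 small proteoglycans and fibril regulators 3 were higher and 2 lower. Fmod, which binds growing fibrils and reached 1 TPM in no BL_cisplatin library, was at 2.21 ± 0.292 TPM in vehicle and 0.336 ± 0.094 TPM in BL_cisplatin. For the folding genes, the other basement membrane proteins and the proteoglycans, the share called higher was below that of all genes.

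Markers of other cells moved as follows. Of 7 fibroblast markers tested 1 was called higher (Mgp), none of 4 smooth muscle and myofibroblast markers was called, and the summed fibroblast markers were 89.3 to 113 TPM in vehicle and 128 to 185 TPM in BL_cisplatin. Endothelial markers were lower in 6 of 9 cases and higher in 1, summing to 112 to 135 and then 76.0 to 90.0 TPM. Mesangial markers were higher in 1 of 6 cases and lower in 3, and of 8 immune markers 4 were tested, 2 of them higher and 2 lower, while collecting duct markers were lower in 2 of 4 cases (sum 118 to 218 and then 101 to 189 TPM). The 8 immune markers summed to 15.1 to 19.9 TPM in vehicle and 52.1 to 74.5 TPM in BL_cisplatin. No adipocyte marker was called, and no marker was at 0 in every library. All 6 proximal tubule markers fell, from 2627 to 3375 TPM in sum to 106 to 176 TPM, and all 3 injured tubule markers (Havcr1, Lcn2, Krt20) rose, from 0.734 to 2.92 TPM in sum to 1019 to 1100 TPM. Of 4 urothelial markers, which mark the lining of the renal pelvis, 3 rose (Upk1b, Upk3a, Krt5), and their sum was 16.8, 6.39, 7.74 and 19.3 TPM in BL_cisplatin against 6.112, 1.357, 4.997 and 0.091 TPM in vehicle. Krt5 and the immune marker Itgam passed the filter only through BL_cisplatin and HP_cisplatin libraries and so had to differ. Both are included in the counts. BL_cisplatin 4, the highest for urothelial and for adipocyte markers, was also the highest for Col1a1, Col3a1 and Lamb3. Within its group it was the highest too for chains that fell, among them Col4a3, Lamc3 and Col14a1. The same held for proximal tubule and podocyte markers, whereas its fibroblast markers were the lowest of the group. Without the libraries high in adipocyte markers 19 chains were called higher and 11 lower, beside 10330 of all genes called. The part of these cells in the collagen and laminin values was not tested.

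After calorie restriction, cisplatin kidneys held these chains close to the vehicle level. Against BL_cisplatin, 17 of the 34 chains were lower and 9 higher in CR_cisplatin (limma, adjusted p under 0.05), beside 37.4% of all genes lower and 29.8% higher. The median log2 difference was −0.32, against −0.08 over all genes. By class 4 fibrillar chains were lower and 1 higher, 9 basement membrane chains lower and 6 higher, and 4 other chains lower and 2 higher. Without Lamb3, Col7a1 and Col13a1 14 of 31 chains were lower and 9 higher (median −0.14), with 2 of 8 other chains each way. This comparison and the one above share the BL_cisplatin libraries, so their values are given side by side without a correlation. CR_cisplatin 1 carries the BL_cisplatin prefix, and its value is therefore also given within that prefix. With the prefix as a term 17 chains were called.

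In the fibrillar class Col1a1 was at 2.95, 2.47, 2.78 and 4.83 TPM in CR_cisplatin 1 to 4, all below every BL_cisplatin library (log2 difference −1.57, SE 0.28, limma adjusted p = 0.00026, and −1.65 for CR_cisplatin 1 alone). Col3a1 was at 5.16, 3.89, 5.12 and 6.96 TPM (log2 difference −1.48, SE 0.26, limma adjusted p = 0.00021, and −1.49 within the prefix). Col5a2 was higher than in BL_cisplatin, at 5.03, 5.71, 5.84 and 6.88 TPM (log2 difference 1.13, limma adjusted p = 0.0013). The call for Col5a1 (log2 difference −0.36, limma adjusted p = 0.019) was lost without BL_cisplatin 4 (0.0543) or CR_cisplatin 2 (0.0604).

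Col4a1 was at 59.5, 53.3, 58.9 and 67.0 TPM in CR_cisplatin (log2 difference from BL_cisplatin −1.35, SE 0.17, limma adjusted p = 5.8e-05, and −1.35 within the prefix). Col4a3 was at 54.9, 58.9, 53.7 and 66.1 TPM, above every BL_cisplatin library (log2 difference 1.39, SE 0.22, limma adjusted p = 0.00012, and 1.31 within the prefix), and Col4a4 at 44.8 ± 3.66 TPM (log2 difference 1.31). Col4a1 made up 25.5% to 29.0% of the collagen IV sum. Col4a5 was 0.39 lower on the log2 scale (limma adjusted p = 0.047), a call lost without any of 10 single libraries (0.0515 to 0.135). Col18a1 was at 25.9, 27.0, 27.5 and 29.3 TPM, 5.60-fold below BL_cisplatin (log2 difference −2.44, SE 0.37, limma adjusted p = 9.6e-05, and −2.52 within the prefix).

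Among the laminins Lama5 was at 17.5, 18.6, 19.3 and 18.8 TPM (log2 difference −1.94, SE 0.28, limma adjusted p = 7.9e-05, and −2.02 within the prefix). Lamc3, the gamma chain that cisplatin lowered, was at 5.18, 6.22, 7.43 and 5.88 TPM (log2 difference 1.55, SE 0.24, limma adjusted p = 0.00010, and 1.34 within the prefix). No CR_cisplatin library of either gene overlapped BL_cisplatin. Lamc1 was lower by a log2 difference of −1.22, and Lama1, Lama2 and Lama3 higher by 0.63, 0.74 and 0.63. Col14a1 was at 7.57, 7.44, 11.3 and 7.95 TPM, with a log2 difference of 1.63 (SE 0.26, limma adjusted p = 0.00012). Lamb3 was at 0.505, 0.418, 0.313 and 0.735 TPM, and Col13a1 at 0.740 ± 0.188 TPM.

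Among the partner genes, beside 37.4% of all genes lower and 29.8% higher, limma called 8 of 10 processing enzymes lower and 1 higher (Tgm2 −1.33 on the log2 scale), 10 of 13 receptors lower and 1 higher (Itgb4 −2.59), 8 of 9 TGF-beta signals lower and 1 higher (Tgfb1 −1.66), and 8 of 19 folding genes higher and 5 lower (P3h2 1.32). Of 14 other basement membrane proteins 4 were higher and 3 lower, both below the share of all genes, and of 9 small proteoglycans and fibril regulators 3 each way. Lox was at 0.583 ± 0.283 TPM. The genes tested include Lox, Loxl4, Itga2 and 1 further receptor, which the filter kept through BL_cisplatin and HP_cisplatin libraries.

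Markers of other cells moved in this comparison too. All 6 proximal tubule markers were higher in CR_cisplatin than in BL_cisplatin, summing to 2552 to 3121 TPM, and all 3 injured tubule markers lower, at 1.01 to 5.67 TPM in sum. Endothelial markers were higher in 4 of 9 cases and lower in 1 (sum 101 to 117 TPM), collecting duct markers higher in 3 of 4 (110 to 161 TPM), and mesangial markers higher in 3 of 6 and lower in 3 (58.5 to 109 TPM). Of the 4 immune markers tested 2 were higher and 2 lower, and the sum of all 8 was 14.5 to 18.2 TPM against 52.1 to 74.5 TPM in BL_cisplatin. Urothelial markers were lower in 3 of 4 cases and summed to 1.64, 1.30, 0.153 and 8.54 TPM. The markers tested include Krt5 and Itgam, which the filter kept through BL_cisplatin and HP_cisplatin libraries. Podocyte markers were higher in 1 of 8 cases and lower in 1 (51.7 to 58.2 TPM), and no fibroblast (95.8 to 139 TPM), smooth muscle (37.9 to 52.9 TPM) or adipocyte marker was called. The part of these cells in the chain values was not tested.

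**Figure D4:**
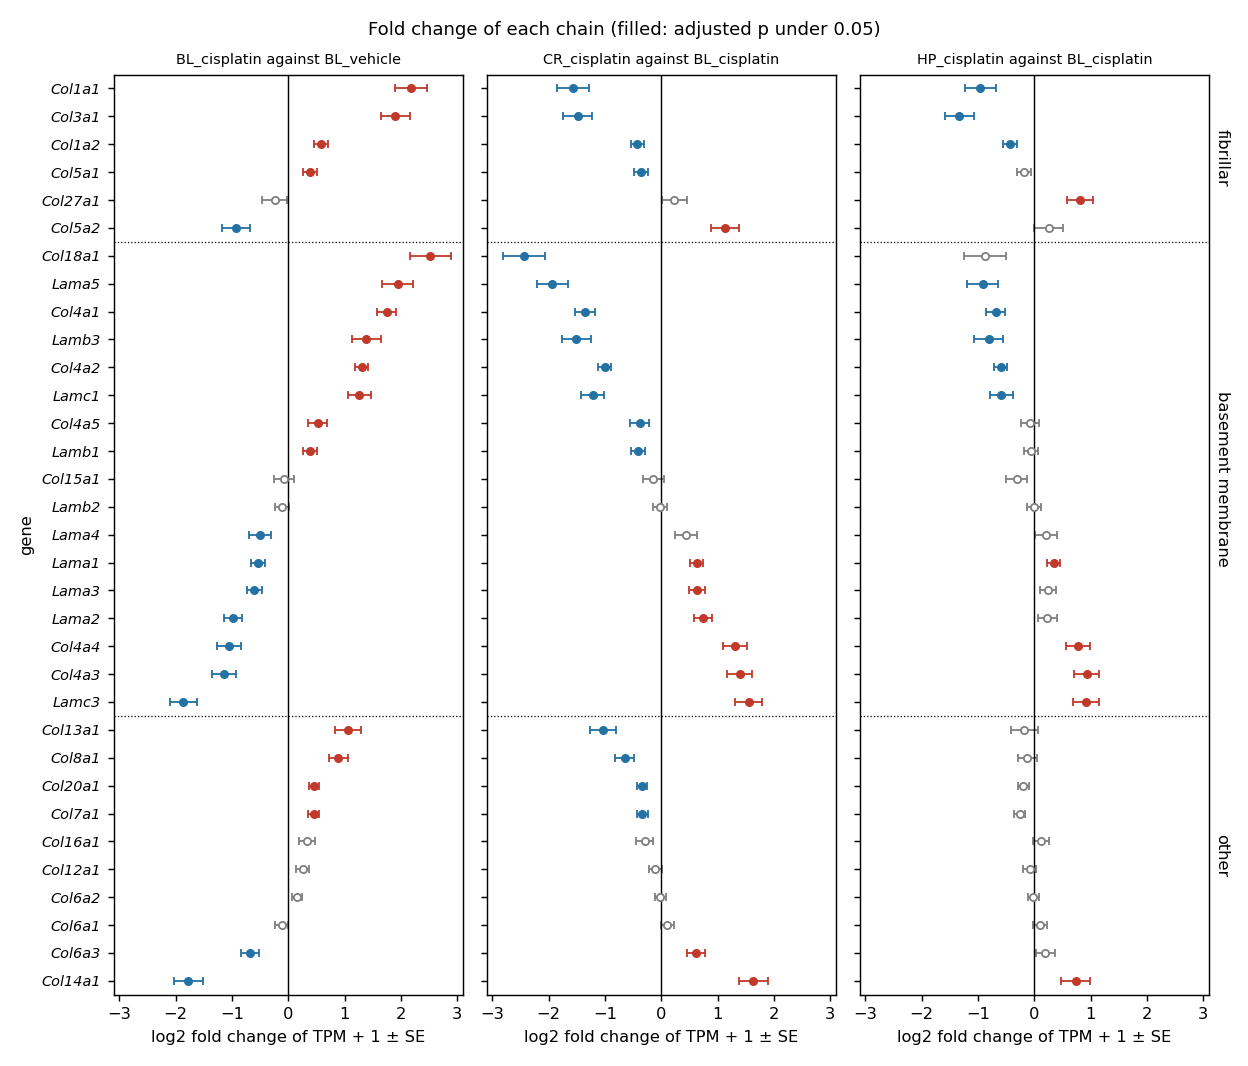
Log2 differences (± SE, limma on log2(TPM + 1), 4 libraries a group) of 33 of the chains for BL_cisplatin against BL_vehicle, CR_cisplatin against BL_cisplatin and HP_cisplatin against BL_cisplatin, filled where the adjusted p was under 0.05. After cisplatin Col18a1 is at 2.52 and Col1a1 at 2.18, and the hypoxia plot has 14 filled points against 26 and 25 in the others.

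Set directly against vehicle, CR_cisplatin kidneys had no chain called in either direction by limma, with 3 of 34 at an unadjusted p under 0.05, beside 0.0133% of all genes called higher and 0.04% lower. Voom on recovered counts also called 0. The largest differences were for Col1a1 (log2 difference 0.61, SE 0.28), Col3a1 (0.42, SE 0.26), Col4a1 (0.39, SE 0.17), Lamc3 (−0.31, SE 0.24) and Col4a2 (0.30, SE 0.12). All 4 CR_cisplatin libraries lay above all 4 vehicle libraries for Col1a1, Col4a1, Col4a2 and Col4a4, at 1.86, 1.32, 1.23 and 1.21 times the vehicle means. The share of all genes separated in this way was not counted. A p that misses the threshold does not show that the groups are alike.

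Hypoxic preconditioning gave no uniform picture: its 4 libraries ranged from the BL_cisplatin level to the vehicle level. Against BL_cisplatin, limma called 9 of the 34 chains lower and 6 higher in HP_cisplatin, beside 13.1% of all genes lower and 16.4% higher. The median log2 difference was −0.08, against −0.02 over all genes. Without Lamb3, Col7a1 and Col13a1, which the filter kept through BL_cisplatin and HP_cisplatin libraries, 8 of 31 chains were lower and 6 higher (median −0.07). Without HP_cisplatin 4, 5 chains were lower and 4 higher, beside 6.99% and 12.2% of all genes. The count also fell to 5 without HP_cisplatin 2, to 9 without BL_cisplatin 1 and to 8 without BL_cisplatin 2 or 3, and to 2 without the libraries high in adipocyte markers. In that order 2210, 2957, 2667, 2369 and 525 of all genes were called, against 4420 with all libraries. Fitted on the groups compared alone, limma called 0 chains, with 15 at an unadjusted p under 0.05. With the title prefix as a term it also called 0, with 2 at an unadjusted p under 0.05. In both settings 0 of all genes were called.

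Col3a1 had the largest difference. It was at 11.2, 3.57, 4.20 and 6.65 TPM in HP_cisplatin 1 to 4, so each library lay below all BL_cisplatin libraries and HP_cisplatin 2 and 3 lay within the vehicle range (log2 difference −1.33, SE 0.26, limma adjusted p = 0.0055). Without HP_cisplatin 4 it was −1.39 (adjusted p = 0.010). Col1a2 also showed no overlap, at 6.53, 5.75, 5.38 and 6.55 TPM (log2 difference −0.44, limma adjusted p = 0.018, and 0.026 without HP_cisplatin 4), a call that was lost without HP_cisplatin 2. Col1a1 ranged more widely, at 10.7, 2.78, 5.39 and 4.75 TPM (log2 difference −0.96, SE 0.28, limma adjusted p = 0.022). That call was lost without HP_cisplatin 4 (0.053), HP_cisplatin 2 or BL_cisplatin 4. Col27a1 was the fibrillar chain called higher, at 19.1, 22.0, 31.2 and 16.3 TPM against 13.8, 8.45, 8.68 and 18.8 TPM in BL_cisplatin, with overlap (log2 difference 0.81, SE 0.23, limma adjusted p = 0.020, and 0.019 without HP_cisplatin 4). It was lost without BL_cisplatin 2 or 3 or HP_cisplatin 2.

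Of the basement membrane chains Col4a1 and Col4a2 fell without overlap. Col4a1 was at 140, 79.5, 111 and 65.4 TPM (log2 difference −0.69, SE 0.17, limma adjusted p = 0.013, and −0.51 with 0.025 without HP_cisplatin 4), and Col4a2 at 65.0, 49.6, 54.9 and 38.9 TPM (log2 difference −0.60, adjusted p = 0.0057, and 0.0072 without it). Col4a3 was higher, at 24.2, 43.0, 45.9 and 64.7 TPM, with HP_cisplatin 1 inside the BL_cisplatin range (log2 difference 0.93, SE 0.22, limma adjusted p = 0.0100, and 0.022 without HP_cisplatin 4). Col4a4 was higher by 0.78 (limma adjusted p = 0.017, and 0.043 without HP_cisplatin 4), a call lost without BL_cisplatin 2 or 3 or HP_cisplatin 2. Col18a1, at 159, 68.0, 147 and 29.5 TPM, spanned nearly the whole distance between the cisplatin and vehicle groups and did not pass (log2 difference −0.88, SE 0.37, limma adjusted p = 0.084). It was called without HP_cisplatin 1 (0.012) or HP_cisplatin 3 (0.0355), and without HP_cisplatin 4 it did not pass (−0.39, adjusted p = 0.2).

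Lama5 was at 68.3, 35.1, 52.1 and 17.5 TPM (log2 difference −0.92, limma adjusted p = 0.027, and 0.032 without HP_cisplatin 4). HP_cisplatin 1 sat with BL_cisplatin and HP_cisplatin 4 with vehicle, and the call was lost without BL_cisplatin 1, 2 or 3 or HP_cisplatin 2. Lamc3 was at 1.67, 5.18, 2.93 and 5.94 TPM, higher than BL_cisplatin (log2 difference 0.92, SE 0.24, limma adjusted p = 0.014, and 0.037 without HP_cisplatin 4). In limma Lamc1 (log2 difference −0.59), Lama1 (0.34) and Col14a1 (0.73) passed with adjusted p of 0.044, 0.047 and 0.045 and did not pass without HP_cisplatin 4. Their calls were lost under the omission of 13, 13 and 12 single libraries of 16. Lamb3 was at 3.32, 1.12, 1.29 and 0.612 TPM. Col3a1, Col4a1, Col4a2, Col4a3 and Lamc3 were called under the omission of any single library.

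The distance of each hypoxia library from the vehicle and cisplatin means differed between chains. Over the 27 chains whose BL_cisplatin and BL_vehicle libraries did not overlap, each library was placed on the log2(TPM + 1) scale with 0 at the vehicle mean and 1 at the BL_cisplatin mean. Among the 27 are Lamb3, Col7a1, Col13a1 and Col20a1, which needed BL_cisplatin and HP_cisplatin libraries to pass the level filter. The medians were 0.95 for HP_cisplatin 1, 0.42 for HP_cisplatin 2, 0.75 for HP_cisplatin 3 and 0.18 for HP_cisplatin 4, and 0.03 to 0.16 for the CR_cisplatin libraries. Col18a1 followed these medians, at 1.02, 0.54, 0.97 and 0.07. Col3a1 did not, at 0.74, −0.01, 0.09 and 0.38. Col4a3 was at 0.08 and Col4a4 at 0.25 in HP_cisplatin 3, a library in which Lama5 was at 0.75 and Col18a1 at 0.97. Col5a2 was at 1.35, 0.96 and 0.99 in HP_cisplatin 1 to 3 and at −0.39 in HP_cisplatin 4, and Col13a1 at 0.83, 1.16, 1.35 and −0.01. Col8a1 was at 0.98, 0.63, 1.01 and 0.81, and so high also in HP_cisplatin 4. These places describe single libraries and carry no test. The share of all genes whose BL_cisplatin and BL_vehicle libraries did not overlap was not counted. Of all genes 38.0% were called higher and 28.8% lower in that comparison.

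**Figure D5:**
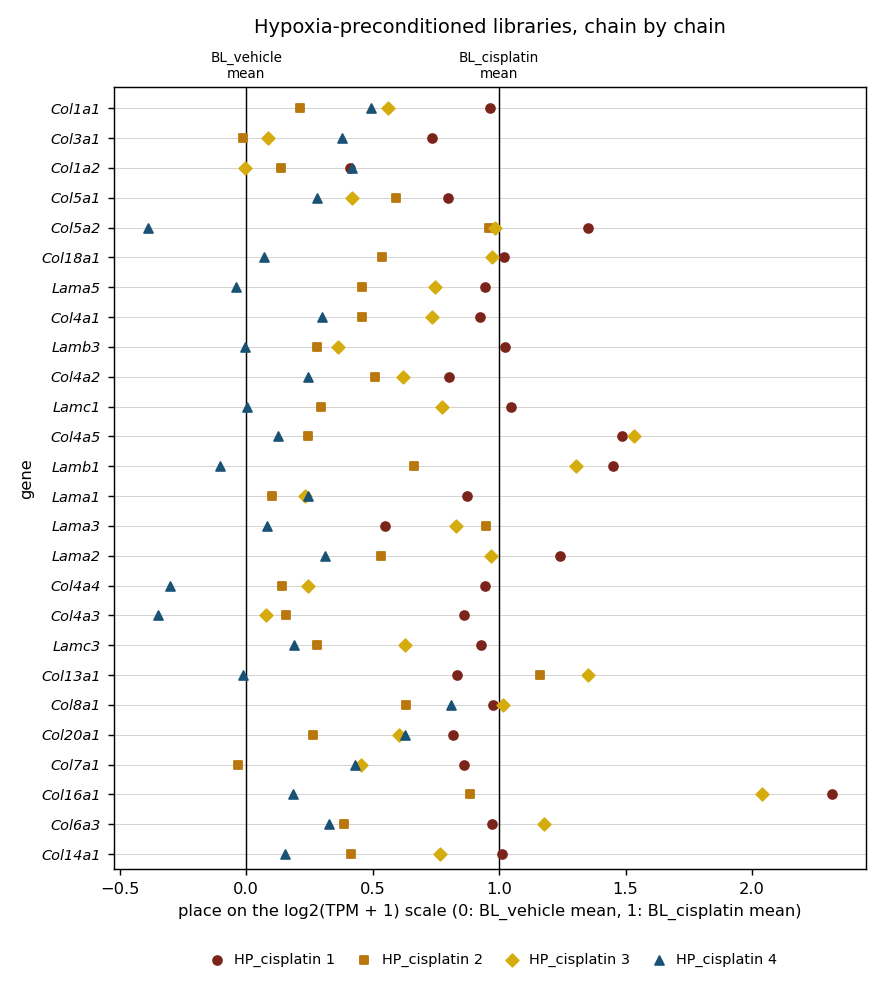
Place of each HP_cisplatin library (points) between the BL_vehicle mean (0) and the BL_cisplatin mean (1) on the log2(TPM + 1) scale, for 26 of the 27 chains whose vehicle and cisplatin libraries did not overlap. HP_cisplatin 1 lies near 1 and HP_cisplatin 4 near 0 for most chains, with medians of 0.95 and 0.18, and HP_cisplatin 2 and 3 lie between them, with medians of 0.42 and 0.75.

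Against vehicle, with the same hypoxia libraries, 11 chains were higher and 4 lower (limma, adjusted p under 0.05), beside 19.2% and 10.1% of all genes, and 15 and 6 without HP_cisplatin 4, beside 33.5% and 17.9%. Without Lamb3, Col7a1 and Col13a1, and with all libraries, 10 of 31 chains were higher and 4 lower. The higher chains included Col18a1 (log2 difference 1.64), Col1a1 (1.22), Col4a1 (1.05) and Lama5 (1.02), and the lower ones were Col14a1 (−1.04), Lamc3 (−0.94), Lama2 (−0.75) and Col6a3 (−0.49). Without HP_cisplatin 4 these differences were 2.13, 1.26, 1.23 and 1.39 for the higher chains and −1.30, −1.14, −0.90 and −0.58 for the lower ones, and all 8 passed. All HP_cisplatin libraries lay above all vehicle libraries for Col1a1, Col4a1, Col4a2 and Col8a1, and the share of all genes separated in this way was not counted. Col3a1 was not called here (log2 difference 0.57, SE 0.26, limma adjusted p = 0.10, and 0.51 with 0.14 without HP_cisplatin 4). The count was 6 without HP_cisplatin 3 (Col1a1, Col4a1, Col4a2, Col8a1, Col18a1 and Lama2), Lama5 was also lost without HP_cisplatin 1, and Col6a3 under the omission of 11 single libraries. The count was 0 when only the groups compared were fitted, with 18 at an unadjusted p under 0.05. Of all genes 692 were called without HP_cisplatin 3 and 11 with only the groups compared, against 4398 in the main fit.

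Between the preconditioned groups 9 chains were lower in CR_cisplatin than in HP_cisplatin and 4 higher (limma, adjusted p under 0.05), beside 15.0% and 9.24% of all genes. Without Lamb3, Col7a1 and Col13a1, 8 of 31 chains were lower and 4 higher. Without HP_cisplatin 4, which lay close to CR_cisplatin 4, 13 were lower and 8 higher, beside 32.5% and 18.5%. Col18a1 differed by −1.56 (SE 0.37, limma adjusted p = 0.028) with no overlap between groups, Lama5 by −1.02 and Col4a1 by −0.67, and Col14a1 and Col5a2 were higher in CR_cisplatin by 0.89 and 0.88. Those 5 differences were −2.05, −1.38, −0.84, 1.15 and 1.22 without HP_cisplatin 4, and all passed. Col1a2 differed by 0.01 (SE 0.12) and Col3a1 by −0.15 (SE 0.26), neither past the threshold, and by 0.05 and −0.10 without that library, again not past it. Without any single CR_cisplatin library, or without HP_cisplatin 1 or 3, no chain was called, with 15 to 21 at an unadjusted p under 0.05 in limma. Without BL_cisplatin 1 or BL_vehicle 2 the count was 8, and with no filter it was 0, with 20 at an unadjusted p under 0.05. Of all genes 2716 were called without BL_cisplatin 1 and 2712 without BL_vehicle 2. In each setting here that left no chain called, 0 of all genes were called.

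The partner genes after hypoxia are set against BL_cisplatin, beside 13.1% of all genes lower and 16.4% higher, or 6.99% and 12.2% without HP_cisplatin 4. Of 10 processing enzymes 7 were lower and 1 higher, and 5 and 0 without HP_cisplatin 4. Lox was at 1.38 ± 0.574 TPM against 4.55 ± 0.883 TPM. Lox and Loxl4 among the enzymes, and Itga2 and 1 further receptor, were kept by the filter through BL_cisplatin and HP_cisplatin libraries. Of 13 receptors 6 were lower, and 2 without that library. Itgb4 was lower by log2 −1.22 (limma adjusted p = 0.027), a call lost without HP_cisplatin 4 (−0.79, adjusted p = 0.059), and Itga2 was at 0.505 ± 0.409 TPM. Of 14 other basement membrane proteins 3 were lower, and 2 without HP_cisplatin 4. Sparc, a matrix protein that binds collagen, was lower by log2 −0.76 (limma adjusted p = 0.0040, and −0.83 with 0.0049 without HP_cisplatin 4). Of 19 folding genes 3 were higher and 1 lower, below the shares of all genes, and the same numbers held without HP_cisplatin 4. P3h2 was among the higher ones (log2 0.84, limma adjusted p = 0.0066, and 0.69 with 0.013 without it). Of 9 TGF-beta signals 3 were lower, and 1 without HP_cisplatin 4. Of 9 small proteoglycans and fibril regulators 2 were higher and 1 lower, and 0 and 1 without it. The lower one was Tnc (log2 −1.04, limma adjusted p = 0.020, and −1.04 with 0.040 without HP_cisplatin 4).

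Tubule and immune markers differed widely among the 4 hypoxia libraries. Summed proximal tubule markers were at 199, 1520, 594 and 2630 TPM in HP_cisplatin 1 to 4, and all 6 were called higher than in BL_cisplatin. Injured tubule markers summed to 1227, 106, 673 and 1.24 TPM, with 1 of 3 called lower, and the 8 immune markers to 53.0, 24.8, 40.1 and 16.7 TPM, with 1 of 4 tested called lower. HP_cisplatin 1 was nearest to BL_cisplatin and HP_cisplatin 4 nearest to vehicle in each of these sums. Collecting duct markers were higher in 2 of 4 cases (sum 77.3 to 175 TPM), mesangial markers higher in 1 of 6 and lower in 1 (44.6 to 71.4 TPM), endothelial markers lower in 1 of 9 (62.8 to 111 TPM) and podocyte markers lower in 1 of 8 (37.5 to 62.6 TPM). Of 7 fibroblast markers 1 was lower (59.8 to 129 TPM), and no smooth muscle (22.1 to 51.2 TPM) or adipocyte marker was called. Without HP_cisplatin 4, 2 of 4 smooth muscle markers were called lower and 1 of 4 collecting duct markers higher. Mesangial markers were then higher in 1 of 6 cases and lower in 0, and the counts of the other marker lists stayed the same. Urothelial markers were lower in 1 of 4 cases and summed to 3.04, 8.18, 1.26 and 7.34 TPM. Krt5 and Itgam, which the filter kept through BL_cisplatin and HP_cisplatin libraries, are among the markers tested. The part of these cells in the chain values was not tested.

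The 21 chains that did not reach the level filter are described only. Col23a1, a transmembrane collagen, was at 0.865 ± 0.146 TPM in BL_vehicle, 0.136 ± 0.0328 TPM in BL_cisplatin and 0.476 ± 0.0697 TPM in CR_cisplatin. Col19a1 was at 0.793 TPM on average in vehicle, 0.0368 TPM in BL_cisplatin and 0.712 TPM in CR_cisplatin. Col17a1, a hemidesmosome collagen, had means of 0.0214 TPM in vehicle and 0.268 TPM in BL_cisplatin. Col4a6, the X-linked neighbour of Col4a5, was at 0.635 and 0.765 TPM in the same groups.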

How the data were processed

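Sequencing covered 16 libraries of mouse kidney RNA after removal of ribosomal RNA. Per the submitters' processing notes, STAR 2.5 and featureCounts of Subread 1.5 were used with mm10/GRCm38; the order of steps and the use of strand are not given in the sources used here. The authors deposited TPM per gene, read here as deposited. Genes reaching 1 TPM in 4 or more of the 16 libraries, 15014 of 46078, were tested with limma 3.58.1 (R 4.3.3, statmod 1.5.0) on log2(TPM + 1), which understates changes of low genes, with all 4 groups in 1 fit, trended and robust variances, 2-sided tests, Benjamini-Hochberg adjustment over all genes tested and a threshold of 0.05. Chains that met the symbol and level rule were named, except 1 that is counted but not reported here, and from each partner list at most 4 genes, those with the smallest adjusted p in BL_cisplatin against BL_vehicle. Members and lists were chosen with earlier results of these data known.

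Whole read counts were recovered from the TPM with GENCODE M21 exon lengths: of 32198 genes with reads 76.3% came out whole with the annotated length within 0.0001 reads, 7626 with a length found by search and 1 not at all. These counts, 49174117 to 62594474 per library, served for depth, for comparing libraries and for limma-voom as an alternative. Alternatives changed the pseudocount (0.1), the filter, the scaling, the libraries fitted or the terms, and left out each library. Leaving out the 5 libraries over 10 TPM of adipocyte markers was added after the data were seen. Ratios of chains, shares and placements carry no test. Promoters came from RefSeq (GRCm38.p6) and gene ends from GENCODE M21. The procedure was tested on simulated data.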

Additional observations from a re-analysis of the deposited data

Results flagged for a closer look

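In 9 of 136 sets of 4 libraries (34 chains in 4 groups) a single library stood apart by a gap of more than the 95% limit for such a set, given as its gap to the nearest other library over the whole range. Chance gives about 1 in 20. Of these, 3 were in BL_cisplatin 4, the library with 73.9 TPM of summed adipocyte and 19.3 TPM of summed urothelial markers. It had 16.8 TPM of Col1a1 against 9.44 to 10.3 TPM in the other BL_cisplatin libraries (gap share 0.852), 5.30 TPM of Lamb3 against 2.59 to 2.90 TPM (0.854), and 1.29 TPM of Lama4 against 0.418 to 0.487 TPM (0.901). The part of those cells was not tested.

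BL_cisplatin 3 had 2.52 TPM of Col12a1 against 1.69 to 1.80 TPM in its group (0.845). BL_vehicle 3 had 49.3 TPM of Col4a1 against 43.6 to 44.5 TPM (0.84), still far below every BL_cisplatin library. BL_vehicle 1 had 7.74 TPM of Col14a1 against 9.85 to 10.3 TPM (0.855), still above every BL_cisplatin library. CR_cisplatin 3 had 11.3 TPM of Col14a1 against 7.44 to 7.95 TPM (0.842) and 7.56 TPM of Col6a1 against 5.55 to 5.86 TPM (0.83). CR_cisplatin 2 had 20.0 TPM of Lamb1 against 22.8 to 23.1 TPM (0.901).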

How the results depend on the processing

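The number of chains called was 27 for BL_cisplatin against BL_vehicle and 26 for CR_cisplatin against BL_cisplatin, 26 to 28 and 24 to 28 when single libraries were left out, and within 1.5 times of the main number under every other setting run except the title prefix as a term (11 and 17). With that term 3413 and 6327 of all genes were called, against 10032 and 10100 in the main fit. For HP_cisplatin against BL_cisplatin the 15 calls became 5 to 19 when single libraries were left out, 2 without the libraries high in adipocyte markers (13 at an unadjusted p under 0.05), and 0 with the prefix as a term (2 unadjusted) or with only the groups compared fitted (15 unadjusted). Over all genes the main 4420 calls became 2210 to 7156, 525, 0 and 0 in the same order. For HP_cisplatin against BL_vehicle the 15 became 6 to 21 when single libraries were left out, 26 without the libraries high in adipocyte markers, and 0 with only the groups compared fitted (18 unadjusted). Over all genes the main 4398 became 692 to 7709, 8488 and 11 in that order. For CR_cisplatin against HP_cisplatin the 13 became 0 to 21 when single libraries were left out, 24 without the libraries high in adipocyte markers, and 0 with no filter (20 unadjusted), with only the groups compared fitted (18 unadjusted) or with the prefix as a term (19 unadjusted). Over all genes the main 3642 became 0 to 7654 and 8398, and 0 in every setting with 0 chains, so these shifts were not particular to the chains. CR_cisplatin against BL_vehicle gave 0 throughout. No called chain changed direction under any setting run. The cause of these shifts was not tested. Voom on recovered counts called 30, 27, 16, 0, 19 and 15 chains in the 6 comparisons, in the order BL_cisplatin against BL_vehicle, CR_cisplatin and HP_cisplatin against BL_cisplatin, CR_cisplatin and HP_cisplatin against BL_vehicle, and CR_cisplatin against HP_cisplatin. Of all genes it called 10546, 10540, 4845, 8, 5064 and 4148.

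Rescaling the TPM without mitochondrial, haemoglobin and the 10 most abundant genes moved the median log2 difference of all genes from 0.08 to 0.24 in BL_cisplatin against BL_vehicle, from −0.08 to −0.24 in CR_cisplatin and from −0.02 to −0.14 in HP_cisplatin against BL_cisplatin, and the calls to 20 higher and 10 lower, 9 and 18, and 5 and 11. Of all genes 10739, 10767 and 5909 were then called in these comparisons. Array weights did not converge and were not used. No paired analysis was possible because the labels carry no replicate numbers.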
